A study of Mus musculus with 10 samples.

Results

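The genes described here are the axon guidance ligands and receptors of the semaphorin, plexin, ephrin, Eph receptor, Slit, Robo and netrin families, read in endothelial cells (ECs) of mouse long bone. Members were chosen by their symbols alone: Sema3 to Sema7 with a letter, Plxna to Plxnd, Efna and Efnb, Epha and Ephb, Slit and Robo with a number, and Ntn1, Ntn3 and Ntn4. The rule found 60 of the 26504 genes listed, made up of 20 semaphorins, 9 plexins, 8 ephrins, 13 Eph receptors, 3 Slits, 4 Robos and 3 netrins. Of these, 59 had a UMI (a counted molecule) in at least 3 cells, the exception being Epha6. The test between EC classes took 34 members past its filter on low counts, and 22 members reached a mean of 20 CPM (UMIs scaled to a common library size) in at least 1 class.

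These families were found as cues that steer growing axons, and vessels use many of the same molecules. Semaphorins are secreted or membrane-bound ligands that signal through plexins, for class 3 members often with a neuropilin as co-receptor. Ephrins and Eph receptors are both anchored in membranes and signal in both directions at cell contacts, and the pair of ephrin-B2 on arterial cells and EphB4 on venous cells is a textbook sign of the arterial and venous identity of ECs. Slits are secreted ligands of Robo receptors, and netrins are laminin-related secreted proteins.

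The study sequenced single ECs from the femur and tibia of C57BL/6 mice carrying the reporter genotype Cdh5-mTnG, a Cdh5-driven reporter that marks ECs with membrane Tomato and nuclear GFP, after lineage-positive cells had been depleted and double-positive cells sorted. There were 5 groups of 2 libraries each: juvenile (3 weeks, males and females), adult (12 weeks, females), aged (75 weeks, females), PTH (12 weeks, females given daily parathyroid hormone 1-34, which builds bone) and alendronate (12 weeks, females given alendronate, a bisphosphonate that blocks bone resorption, every other day). All 5 groups carry the same reporter, and both libraries of a group came from 1 pool of mice by the study's methods, so p-values measure the spread between libraries and not between animals. The juvenile comparison also differs in sex, and age and sex cannot be told apart there.

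The libraries held 10653583 to 28419323 UMIs, with a median of 3075 to 5149 UMIs per cell, and 46283 of 47466 barcodes had 500 to 6000 genes and under 25% mitochondrial UMIs. Both aged libraries stood apart: they shared at most 4 barcodes with any other library, where other pairs shared up to 88. Only they had UMIs of 276 genes with symbols starting with U, 1.52% and 1.53% of their UMIs, which were left out. Genes of other symbols with UMIs in the aged libraries alone were not counted here and were not left out for this. The labels name 2 versions of the reagent kit without a library beside them, so age and such a technical difference cannot be told apart in the aged comparison. Of 9957 genes with at least 5 CPM in the other 8 libraries, 0 were at 0 UMIs in both aged libraries.

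After 2603 cells of other types had been set aside, 43680 ECs were clustered and named from markers, with no axon guidance gene among the markers or the variable features. The classes are called by the study's terms with the suffix -like: 18411 bmEC-like cells (bone marrow, sinusoidal, type L), 12786 mpEC-like cells (metaphyseal, type H), 6580 aEC-like cells (arterial), 4762 rEC-like cells (remodelling, type R) and 664 pEC-like cells (proliferating). A further 477 ECs stayed without a name. Summed haematopoietic marker levels over the classes were 4.28 to 36.9 CPM in juvenile, 19.1 to 36.5 in PTH, 48.2 to 64.9 in adult, 59 to 161 in alendronate and 67.1 to 169 CPM in aged libraries. Between 0 and 12 of the 13 markers were at 0 UMIs in a sum, and the part of this RNA in the results was not tested.

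Promoters of the arterial-side ligands Sema3g, Efnb2 and Sema7a are shown because the class and group results turn on them. Each is the 250 bases before the RefSeq start on build GRCm38.p6, read 5′ to 3′ on the gene's strand. Capitals mark every CACCC or its reverse complement GGGTG (the core of the sites of KLF factors).
Sema3g (chr14:31217623-31217872, plus strand): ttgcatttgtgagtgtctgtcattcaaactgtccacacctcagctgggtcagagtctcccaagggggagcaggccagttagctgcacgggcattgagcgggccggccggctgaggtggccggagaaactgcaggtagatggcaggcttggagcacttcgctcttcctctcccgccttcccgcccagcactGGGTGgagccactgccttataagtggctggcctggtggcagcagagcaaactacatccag
Efnb2 (chr8:8661243-8661492, minus strand): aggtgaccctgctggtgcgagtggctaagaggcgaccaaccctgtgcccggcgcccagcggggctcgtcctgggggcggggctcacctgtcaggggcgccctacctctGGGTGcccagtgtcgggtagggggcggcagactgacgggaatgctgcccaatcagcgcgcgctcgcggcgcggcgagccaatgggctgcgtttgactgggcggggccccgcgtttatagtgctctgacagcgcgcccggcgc
Sema7a (chr9:57939862-57940111, plus strand): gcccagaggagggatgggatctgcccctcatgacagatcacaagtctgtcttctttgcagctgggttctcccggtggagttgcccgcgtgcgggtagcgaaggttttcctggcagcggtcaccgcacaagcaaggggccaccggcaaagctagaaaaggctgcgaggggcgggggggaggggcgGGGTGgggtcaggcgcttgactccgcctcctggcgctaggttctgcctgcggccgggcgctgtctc
Searched on both strands, CACCC was in 41 of the 51 members' promoters found in the reference (80.4%) and in 52.0% of 32851 promoters of this length. It was in 10 of the 10 promoters found for the 11 members higher in aEC-like cells, whose GC content ran from 60% to 78.8%. For those higher in bmEC-like cells, with a GC content from 40.8% to 74.8%, it was in 3 of 4. ACAAT, the core of SOX sites (reverse complement ATTGT), was in 2 of those 10 and 3 of those 4, against 27.7% of all promoters, and TGGGAA, the core of RBPJ sites (reverse complement TTCCCA), was in 2 of 10 and 1 of 4, against 21.6%. Of those 4 windows, that of Sema3a, 1 of the 3 with ACAAT, belongs to a RefSeq start inside the gene as annotated and is not shown. These matches are letters in a window and not measured binding.

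aEC-like cells had the largest set of members at a higher level than the mean of the other classes. In edgeR's quasi-likelihood test (Benjamini-Hochberg adjustment, library block), a member was called below an adjusted p of 0.05 and beyond a log2 fold change of 1. By this rule 11 of 34 members were higher in aEC-like cells (beside 6.1% of all 11857 genes tested) and 4 lower (beside 7.15%). In either direction this was 44.1% of members and 13.2% of genes. The 11 were Sema3g, Sema7a, Efna1, Efna3, Efna5, Efnb1, Efnb2, Epha4, Ntn1, Ntn4 and Slit3, of which 10 are ligands and 1, Epha4, is a receptor. In bmEC-like cells 4 members were higher (Sema3a, Sema4b, Efna5, Plxnc1; beside 6.77% of genes) and 8 lower (beside 8.59%), 35.3% of members and 15.4% of genes in all. In rEC-like cells 2 were higher (Epha4, Ntn4; beside 6.54%) and 9 lower (beside 6.92%), 32.4% of members and 13.5% of genes. Of these, the Epha4 call was lost without both aged libraries, and Ntn4 was far higher in aged than in adult rEC-like cells, as given below. In mpEC-like cells 4 were higher (Robo1, Robo3, Slit3, Ephb1; beside 2.06%) and 1 lower (Efna5; beside 3.47%), 14.7% of members and 5.52% of genes. In pEC-like cells 3 were higher (Robo1, Robo3, Ephb1; beside 6.95%) and 2 lower (Ntn4, Epha4; beside 4.27%). Their 14.7% is near the background of 11.2%. The mpEC-like count was 11 at a resolution of 0.8. Without a filter on low counts, which adds genes to the test, the bmEC-like and rEC-like counts were 19 and 18. Median log2 fold changes of the members were between -0.26 (rEC-like) and 0.27 (mpEC-like), and those of all genes between -0.06 and 0.02. CPM in the class comparisons are scaled over the sums of all 5 classes.

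**Figure D1:**
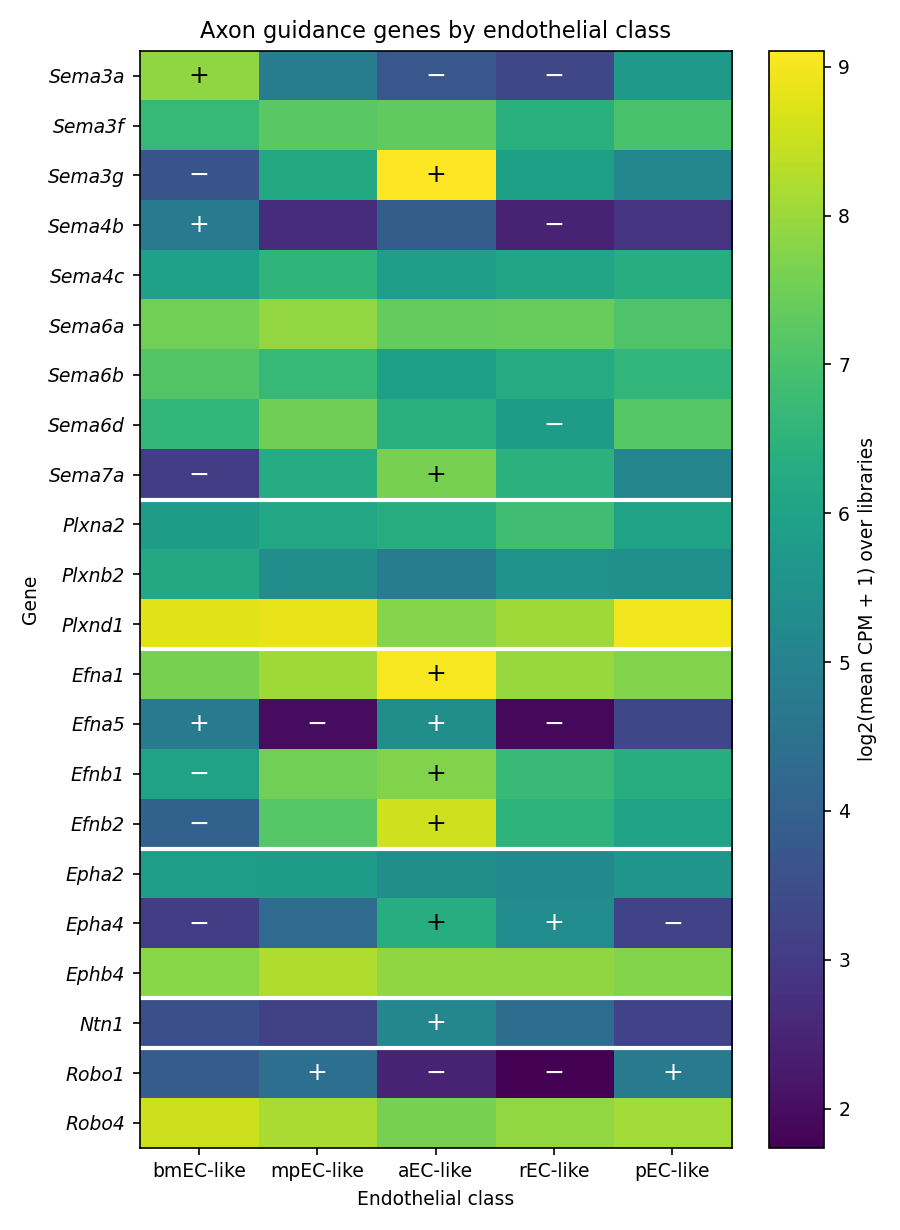
Mean level of the 22 members with at least 20 CPM in a class, as log2(mean CPM + 1) over libraries (n = 10, 9 for pEC-like), with classes across, genes down and + or − where a class call was made as higher or lower. Sema3g reaches 550.5 CPM in aEC-like and 11.6 CPM in bmEC-like cells, Sema3a 235 CPM in bmEC-like and 12.4 CPM in aEC-like cells, while Ephb4 stays between 212 and 298 CPM.

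Among the secreted class 3 semaphorins, Sema3g was highest in aEC-like and Sema3a in bmEC-like cells. Sema3g (chr14:31217860-31230352, plus strand), known from arterial endothelium, had 285 CPM at the lowest, 490.3 at the median and 932 at the highest of the 10 aEC-like sums. In mpEC-like cells it ran from 19.8 to 154 CPM, in rEC-like cells from 26.8 to 106 CPM and in bmEC-like cells from 1.66 to 19.5 CPM. Every aEC-like library was above every library of the other classes (log2 fold change 3.98 ± 0.11, adjusted p = 1.11e-32), mpEC-like and rEC-like levels overlapped, and bmEC-like cells were lower than the rest (log2 fold change -3.06 ± 0.18, adjusted p = 1.22e-20). Sema3a (chr5:13125414-13602565, plus strand), a repulsive cue for axons and ECs, had 147 CPM at the lowest, 262 at the median and 319.7 at the highest in bmEC-like cells. Its next classes were pEC-like cells with 21.3 to 78.6 CPM and mpEC-like cells with 8.16 to 51.1 CPM, and no library of another class reached the lowest bmEC-like one (log2 fold change 3.67 ± 0.12, adjusted p = 4.73e-30). It was lower in aEC-like cells (log2 fold change -1.88 ± 0.21, adjusted p = 9.84e-11) and rEC-like cells (log2 fold change -2.21 ± 0.26, adjusted p = 3.17e-10), and those classes did not differ from each other past the threshold. Sema3f, a ligand of neuropilin-2, was spread over the classes at means from 83.7 CPM in rEC-like to 157 CPM in aEC-like cells and passed no class call.

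Sema7a (chr9:57940112-57962865, plus strand), a GPI-anchored semaphorin that binds plexin C1 and integrins, had 157 CPM at the lowest, 187 at the median and 266 at the highest in aEC-like cells (log2 fold change 2.49 ± 0.12, adjusted p = 2.64e-23). Its rEC-like levels, 34.3 to 178 CPM, reached into the aEC-like range, and rEC-like and mpEC-like levels, 44.2 to 136 CPM, did not differ past the threshold. In bmEC-like cells Sema7a ran from 2.77 to 15.1 CPM, below every library of the other classes except for some of the pEC-like sums (log2 fold change -3.46 ± 0.19, adjusted p = 6.80e-22). Sema4b, a membrane-bound class 4 semaphorin, was lower in rEC-like cells (-1.35 on the log2 scale; -0.99 and no call without integration) and higher in bmEC-like cells, with 9.59 CPM at the lowest, 26.9 at the median and 43.7 at the highest (log2 fold change 2.01 ± 0.12, adjusted p = 2.75e-20). The haematopoietic cells set aside held 41.8 CPM (95% Poisson interval 38.2 to 45.6, 497 UMIs), so this gene has no clean background in these libraries. Among the transmembrane class 6 semaphorins, Sema6d had its highest mean in mpEC-like cells, 182 ± 62.5 CPM (SD, n = 10), and was lower in rEC-like cells, 54.1 ± 20.5 CPM (log2 fold change -1.16 ± 0.07, adjusted p = 8.84e-20). Sema6a, Sema6b and Sema4c passed no class call.

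Of the 6 ephrins tested, 5 were higher in aEC-like cells (beside 6.1% of all genes), and Efna4 was not. Efnb2 (chr8:8617434-8661242, minus strand), which encodes ephrin-B2, had 264 CPM at the lowest, 363 at the median and 537 at the highest in aEC-like cells, above every library of the other classes (log2 fold change 2.73 ± 0.12, adjusted p = 2.15e-25). The mpEC-like sums followed with 76.6 to 253 CPM and the rEC-like sums with 29.8 to 129 CPM. In bmEC-like cells Efnb2 ran from 9.27 to 26.7 CPM (log2 fold change -3.07 ± 0.16, adjusted p = 6.57e-22). The order aEC-like, mpEC-like, rEC-like passed the threshold at each step, whereas rEC-like and pEC-like levels did not differ past it. Clusters within the mpEC-like and within the rEC-like cells held different levels of Efnb2, as given below. The part of the clusters' shares in this order was not tested. Efnb1, the X-linked second ephrin-B, was higher in aEC-like cells (log2 fold change 1.08 ± 0.09, adjusted p = 6.81e-15) at 210.4 ± 50.4 CPM, but did not differ past the threshold from mpEC-like cells at 186 ± 62.8 CPM. Efna1, a ligand of EphA2, had 524 ± 107 CPM in aEC-like cells (log2 fold change 1.23 ± 0.05, adjusted p = 8.85e-27) and between 192 and 266 CPM in the other classes. Efna5 had a pattern with 2 peaks, 21.4 CPM at the lowest, 41.3 at the median and 67.4 at the highest in aEC-like cells and 12.9 CPM at the lowest, 26.5 at the median and 38.9 at the highest in bmEC-like cells. Its means were 2.99 CPM in mpEC-like and 2.69 CPM in rEC-like cells. It passed the test as higher in aEC-like cells (log2 fold change 2.66 ± 0.18, adjusted p = 3.12e-18) and bmEC-like cells (log2 fold change 1.81 ± 0.17, adjusted p = 3.88e-13) and as lower in mpEC-like (-2.11) and rEC-like cells (-2.17 on the log2 scale). With 2 separate integrations its rEC-like value was -1.36.

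**Figure D2:**
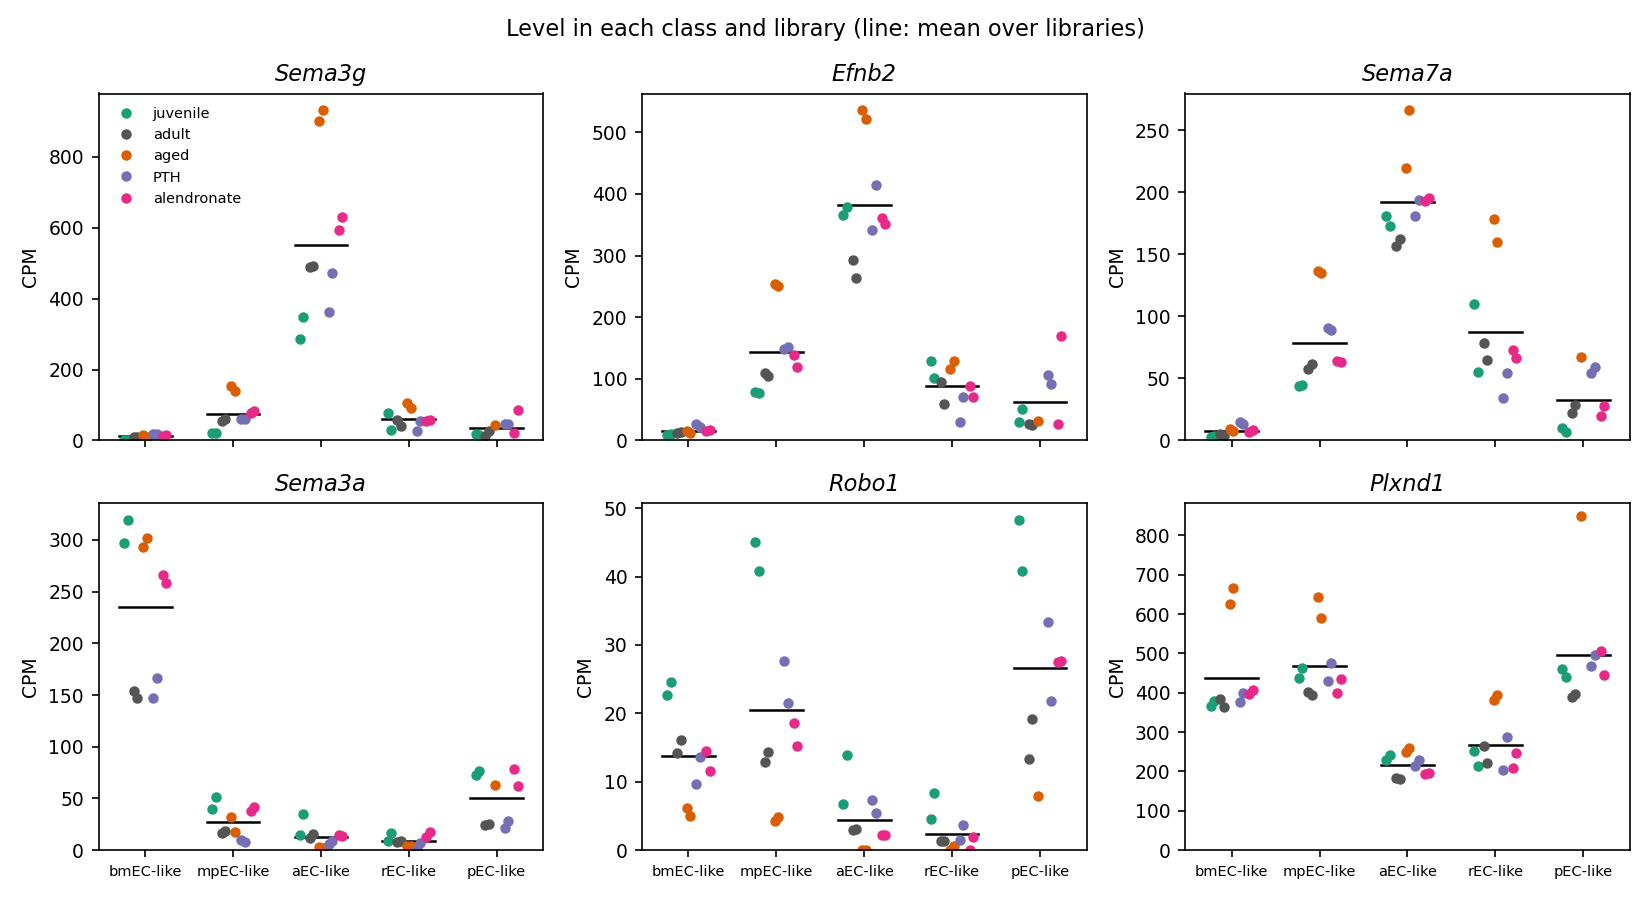
CPM of single members in each class, with 1 point per library coloured by group and a bar at the mean, on linear axes that start at 0. All 10 aEC-like points of Sema3g and Efnb2 and all 10 bmEC-like points of Sema3a lie above every point of the other classes.

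Of the receptors, 6 plexins, 6 Eph receptors and 3 Robos were tested. Plxnc1, Epha4, Ephb1, Robo1 and Robo3 were called in a class, and the share of all genes called in any class was not counted. Plxnd1, the plexin of ECs that binds semaphorin 3E and other class 3 semaphorins, had means from 218 CPM in aEC-like to 495 CPM in pEC-like cells and passed no class call. In the order pEC-like, mpEC-like, bmEC-like the neighbours did not differ past the threshold, and rEC-like and then aEC-like cells were lower. Plxna2, a receptor of class 3 and class 6 semaphorins, was highest in rEC-like cells at 115 ± 80.1 CPM, above aEC-like cells (log2 fold change 0.45 ± 0.09, adjusted p = 1.11e-04), but passed no class call. Plxnb2 had its highest mean in bmEC-like cells, 72.2 ± 8.19 CPM, without a class call. Plxnc1, the receptor of semaphorin 7A, was higher in bmEC-like cells, where Sema7a was lowest, with 9.28 CPM at the lowest, 14.2 at the median and 21.6 at the highest (log2 fold change 2.35 ± 0.13, adjusted p = 4.25e-21). Haematopoietic cells held 21.7 CPM (95% Poisson interval 19.1 to 24.5, 258 UMIs), its exons overlap another gene on the same strand, and whether carried-over RNA adds to its bmEC-like level was not tested.

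Ephb4 (chr5:137350109-137378669, plus strand), the receptor of ephrin-B2 and a venous sign in other tissues, passed no class call. It had 298 ± 19.2 CPM in mpEC-like cells. Its means were 235 ± 22.1 CPM in aEC-like, 233 ± 23.6 in rEC-like, 220.2 ± 17.6 in bmEC-like and 212 ± 47.8 CPM in pEC-like cells. mpEC-like cells were above aEC-like cells (log2 fold change 0.35 ± 0.06, adjusted p = 6.39e-06). The other 3 steps of this order did not pass the threshold. An opposite-strand gene overlaps an Ephb4 exon, and the strand setting of the counting is not stated. Epha4, a receptor of both ephrin classes, had 41.6 CPM at the lowest, 83.4 at the median and 119 at the highest in aEC-like cells (log2 fold change 2.42 ± 0.12, adjusted p = 2.20e-23). It had 4.6 CPM at the lowest, 37.3 at the median and 84.4 at the highest in rEC-like cells (log2 fold change 1.12 ± 0.16, adjusted p = 3.20e-08). These ranges overlap, and the rEC-like call was lost without aged replicate 1 (log2 fold change 0.95) and without both aged libraries (0.95, chosen after seeing the data). Epha4 was lower in bmEC-like (-1.71) and pEC-like cells (-1.55; -2.72 with 2 separate integrations). Epha2, the receptor of ephrin-A1, had means from 37.7 to 56.2 CPM and passed no class call.

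Robo4, the endothelial Robo, had its highest mean in bmEC-like cells, 371 ± 46.2 CPM, and its lowest in aEC-like cells, 193 ± 35.1 CPM, without a class call. Robo1, a receptor of Slits, was low but uneven. In mpEC-like cells it had 4.31 CPM at the lowest, 16.9 at the median and 45 at the highest (log2 fold change 1.47 ± 0.14, adjusted p = 3.90e-12). It had 7.93 CPM at the lowest, 27.5 at the median and 48.3 at the highest in pEC-like cells (log2 fold change 1.79 ± 0.24, adjusted p = 2.82e-08). It was lower in aEC-like (-1.43; -2.46 with 2 separate integrations) and rEC-like cells (-2.72), and its libraries overlapped between all neighbouring classes. Of the Slit ligands, Slit3 passed as higher in aEC-like (9.61 ± 13.8 CPM, log2 fold change 1.78 ± 0.23, adjusted p = 2.91e-09) and mpEC-like cells (9.15 ± 12.3 CPM, log2 fold change 1.82 ± 0.21, adjusted p = 3.31e-10). Slit2 and Slit1 were not tested and had means of at most 0.248 and 0.0361 CPM in a class. Among the netrins, Ntn1, which also binds ECs, had 34.2 ± 18.7 CPM in aEC-like cells (log2 fold change 1.71 ± 0.16, adjusted p = 2.90e-13), with rEC-like cells next at 19.4 ± 11.6 CPM. Ntn4, a basement-membrane netrin, had 18.4 ± 24.4 CPM in aEC-like and 6.53 ± 10.8 CPM in rEC-like cells and was at 0 UMIs in all 9 pEC-like sums. Slit3 and Ntn4 were far higher in aged than in adult libraries of the classes named here, as given below. Their class calls without the aged libraries are not given.

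Shares of cells with a UMI, expected after drawing 1000 UMIs from each cell with at least that many, were set beside those of haematopoietic cells. Cells with fewer UMIs were left out, 8.15% of rEC-like, 5.22% of mpEC-like, 3.91% of aEC-like, 2.9% of bmEC-like, 2.56% of pEC-like and 1.65% of haematopoietic cells. The 1273 haematopoietic cells served as the background of carried-over RNA, although semaphorin 7A is also known from blood cells and whether these cells make any of the ligands was not tested. They had a median depth of 6357 UMIs, against 2470.5 (rEC-like) to 5532 UMIs (pEC-like) in the EC classes. Sema3g was found in 41.1% ± 11.1 of aEC-like cells (SD, n = 10; 74.9% without thinning), in 7.48% ± 4.57 of mpEC-like and 5.56% ± 2.61 of rEC-like cells, and in 1.08% ± 0.535 of bmEC-like cells beside 1.36% ± 1.02 of haematopoietic cells. Efnb2 was found in 31.2% ± 6.15 of aEC-like (64.5% without thinning) and 1.47% ± 0.459 of bmEC-like cells beside 1.29% ± 1.02, and Sema7a in 18% ± 3.13 of aEC-like (47% without thinning) and 0.677% ± 0.355 of bmEC-like cells beside 0.837% ± 0.516. The bmEC-like shares of these 3 genes are thus at this background. Sema3a was found in 18.8% ± 5.25 of bmEC-like cells (47.1% without thinning), and its shares in aEC-like (1.04% ± 0.707) and rEC-like cells (0.817% ± 0.519) were at the background of 1.07% ± 1.2. Plxnd1, Robo4 and Ephb4 were found in 4.67% ± 3.3, 3.02% ± 1.69 and 2.33% ± 1.42 of haematopoietic cells and in at least 19.6% ± 3.27, 17.2% ± 2.94 and 19.4% ± 2.44 of any EC class.

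Clusters within a class differed in the same ligands. The classes were cut from these cells, so the values are a description without a test. Of the aEC-like clusters, that led by Mgp and Gkn3 held Sema3g at 766 ± 205 CPM, Efna5 at 101 ± 37.5, Ntn1 at 80.7 ± 31.7 and Efnb1 at 60.7 ± 19.8 CPM (mean ± SD over libraries). That led by Gja4 held them at 515 ± 235, 26 ± 8.49, 23.9 ± 15.1 and 250.2 ± 71.1 CPM. Of the mpEC-like clusters, that led by Ramp3 and Cd74 held Sema3g at 108 ± 63.9, Efnb2 at 205 ± 90.4 and Robo1 at 10.6 ± 9.82 CPM. The one led by Kcne3 and Apln held them at 33.2 ± 16.8, 81.3 ± 34.9 and 27.4 ± 13.7 CPM. Of the rEC-like clusters, that led by Timp4 and Aqp7 held Sema3g at 98.2 ± 42.6, Efnb2 at 136 ± 48.3, Sema7a at 137 ± 69.9 and Plxna2 at 148 ± 122 CPM. The one led by Tagln and Vwf held them at 18.1 ± 9.93, 38.6 ± 17.5, 37 ± 25.5 and 76.8 ± 35.5 CPM. Ntn4 went the other way, with 1.14 ± 2.22 CPM in the former and 13.9 ± 24.5 CPM in the latter.

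Several members at low levels in ECs were found in the other sorted cells, whose UMIs were summed over libraries without replicates and whose intervals cover counting error only. In 554 cells set aside as mesenchymal Sema3b had 70.2 CPM (95% Poisson interval 60.5 to 81.1, 186 UMIs) and Sema3c 50.2 CPM (95% Poisson interval 42 to 59.5, 133 UMIs), where the EC classes together had 0.177 and 0.231 CPM. Ephb2 had 20.8 CPM (95% Poisson interval 15.6 to 27, 55 UMIs) there and 0.177 CPM in ECs. Of these 554 cells, 348 were of 1 cluster with a mixed profile. Its mean log2 difference from the other clusters was 2.13 for the bmEC markers and 2.22 for the mesenchymal ones. Its summed pan-endothelial genes were at 0.74 of the median over clusters, so the mesenchymal sums are not of mesenchymal RNA alone. In haematopoietic cells Sema4a had 36.4 CPM (95% Poisson interval 33.1 to 40.01, 433 UMIs) and Sema4d, known from lymphocytes, 35.7 CPM (95% Poisson interval 32.4 to 39.3, 425 UMIs). In 54 mural cells Ntn4 had 80.8 CPM (95% Poisson interval 51.2 to 121, 23 UMIs) and Slit3 31.6 CPM (95% Poisson interval 14.5 to 59.99, 9 UMIs). Sema5a had 49.2 CPM (95% Poisson interval 26.9 to 82.5, 14 UMIs) there and 37.4 CPM (95% Poisson interval 30.4 to 45.5, 99 UMIs) in mesenchymal cells. The mural cells came from juvenile, adult, PTH and alendronate libraries. Their mean log2 difference from the other clusters was 5.6 for the mural and 2.58 for the aEC markers. Robo4, an EC gene, had 154 CPM in mesenchymal and 63.2 CPM in mural cells, and the part of endothelial RNA in these sums was not tested. These genes were chosen after their values were seen.

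Age was compared within each class. CPM from here on are scaled within the class, 1 fit per class over the 10 libraries was used, and a member was called at an adjusted p under 0.05. The juvenile, aged, PTH and alendronate comparisons share the 2 adult libraries, so their values are set side by side and are not independent. Between juvenile and adult libraries, 16 of 41 members tested were called in bmEC-like cells (39.0%, beside 37.9% of all genes), which is near the background. Called were 16 of 36 in mpEC-like (44.4%, beside 29.4%), 11 of 32 in aEC-like (34.4%, beside 15%) and 2 of 19 in pEC-like cells (10.5%, beside 3.57%). In rEC-like cells edgeR called 0 of 26 (beside 3.31%), DESeq2 0, and 2 had an unadjusted p under 0.05, with 75 and 73 juvenile cells in the sums. Over bmEC-like, mpEC-like, aEC-like and rEC-like cells the 43 juvenile calls became 28 without adult replicate 2 and 27 in DESeq2.

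Sema3a was higher in juvenile vessels. In bmEC-like cells it had 289.6 and 312 CPM in the juvenile and 147 and 139.6 CPM in the adult libraries (log2 fold change 1.07 ± 0.05, adjusted p = 2.27e-20). In mpEC-like cells it had 42.2 and 54.4 CPM against 16.8 and 19.6 CPM (log2 fold change 1.41 ± 0.16, adjusted p = 1.88e-09), although without the integration step this call was lost at a log2 fold change of 0.33. Of haematopoietic cells with at least 1000 UMIs, 10 of 50 and 2 of 32 had a Sema3a UMI in juvenile libraries. They were 6 of 202 and 12 of 247 in adult libraries. The part of carried-over RNA in the mpEC-like difference of Sema3a was not tested. Robo1 in mpEC-like cells had 47.7 and 43.5 CPM against 13.3 and 14.8 CPM (log2 fold change 1.7 ± 0.14, adjusted p = 9.95e-13). Sema3g moved the other way, with 21.9 and 21.1 CPM in juvenile and 57 and 63.6 CPM in adult mpEC-like cells (log2 fold change -1.49 ± 0.11, adjusted p = 7.39e-14). In aEC-like cells it had 297 and 360.3 against 491 and 495 CPM (log2 fold change -0.58 ± 0.09, adjusted p = 1.25e-05). Within the mpEC-like cluster led by Ramp3 and Cd74 its plain CPM were 43.9 and 37.3 against 77.5 and 87.4, and within that led by Kcne3 and Apln 10.2 and 11.1 against 24.2 and 27.1, so the juvenile libraries lay below the adult ones in both. Another mpEC-like cluster, led by Gm10800 and Gm10801, held 19.5% and 21.3% of juvenile and 18.8% and 17.9% of adult mpEC-like cells. Its levels are not given here. The summed arterial (aEC) markers in mpEC-like cells were at 389 to 392 CPM in juvenile and 611 to 645 CPM in adult libraries, and their part in the mpEC-like difference was not tested. The cluster led by Kcne3 and Apln made up 51.3% and 50.3% of the mpEC-like cells in the juvenile and 37.4% and 35.2% in the adult libraries. Without integration the differences of Sema3g were -0.73 in mpEC-like and -0.30 in aEC-like cells, with both calls kept.

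The ephrins Efnb1, Efna5 and Efnb2 were lower in juvenile libraries of some classes. Efnb1 had 90.1 and 92.4 CPM in juvenile and 213 and 223 CPM in adult mpEC-like cells (log2 fold change -1.26 ± 0.07, adjusted p = 2.10e-18), and was lower also in bmEC-like (-0.74 ± 0.08, SE, on the log2 scale) and aEC-like cells (-0.39 ± 0.10). Efna5 had 15 and 12.6 CPM against 29.1 and 35.9 CPM in bmEC-like cells (log2 fold change -1.23 ± 0.12, adjusted p = 4.33e-11). Efnb2 was lower in juvenile mpEC-like cells, 83.7 and 81.6 against 114 and 108 CPM (log2 fold change -0.43 ± 0.08, adjusted p = 3.70e-05), and higher in juvenile aEC-like cells, 382 and 394 against 293 and 266 CPM (log2 fold change 0.47 ± 0.09, adjusted p = 1.09e-04). Within the cluster led by Ramp3 and Cd74 plain CPM of Efnb2 were 135 and 129 against 145 and 143, and within that led by Kcne3 and Apln 48.5 and 44.8 against 62 and 58.3. The cluster led by Gm10800 and Gm10801 is not given here, and the part of the clusters' shares in the mpEC-like call was not tested. The mpEC-like difference turned to 0.23 without integration. Epha2 had 40.1 and 41.7 against 63.1 and 60.5 CPM in bmEC-like cells (log2 fold change -0.60 ± 0.07, adjusted p = 1.66e-08). Epha4 was lower in juvenile mpEC-like cells, with 5.08 and 3.29 against 20.5 and 15.6 CPM (log2 fold change -2.12 ± 0.23, adjusted p = 1.35e-09). Sema4b, which haematopoietic cells also hold, had 9.35 and 13.8 CPM in juvenile and 34.1 and 41.6 CPM in adult bmEC-like cells (log2 fold change -1.71 ± 0.12, adjusted p = 1.71e-14), and the summed haematopoietic markers were at different levels in the juvenile and adult libraries (11.9 to 15.9 CPM against 56.1 to 60.9 CPM). The part of these cells in it was not tested. The aEC-like call of Efnb1 was lost with 2 separate integrations (-0.19), in DESeq2 (-0.37), without adult replicate 2 (-0.31) or without juvenile replicate 1 (-0.20).

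In aEC-like cells the juvenile libraries also had lower Ntn1, 10.5 and 16.6 against 28 and 30.05 CPM (log2 fold change -1.09 ± 0.32, adjusted p = 0.0161). Efna5 had 29.1 and 22.2 against 42.5 and 49 CPM (log2 fold change -0.83 ± 0.23, adjusted p = 0.0111). Epha4 was lower too (log2 fold change -0.79 ± 0.17, adjusted p = 9.79e-04). Sema6b was higher, 89.7 and 73.2 against 52.1 and 57.5 CPM (log2 fold change 0.57 ± 0.16, adjusted p = 0.0134). These 4 calls depended on single settings. Without integration the log2 fold changes of Ntn1 (-0.93), Efna5 (-0.46) and Epha4 (-0.41) lost the call. The same held for Ntn1 and Efna5 without adult replicate 2 (-1.04, -0.74), Ntn1 and Sema6b without juvenile replicate 1 (-0.80, 0.42), Efna5 and Epha4 without juvenile replicate 2 (-0.65, -0.63) and Sema6b without adult replicate 1 (0.50). DESeq2 did not call Efna5 (-0.82) or Sema6b (0.58) either. The summed mpEC markers in aEC-like cells were at 4735 to 4758 CPM in juvenile and 2396 to 2457 CPM in adult libraries. The summed aEC markers there were at 6715 to 6903 and 8348 to 8567 CPM. The cluster led by Mgp and Gkn3 made up 15.3% and 14.9% of juvenile and 23.2% and 20.3% of adult aEC-like cells. The part of these in the juvenile aEC-like differences, also that of Sema3g, was not tested.

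**Figure D3:**
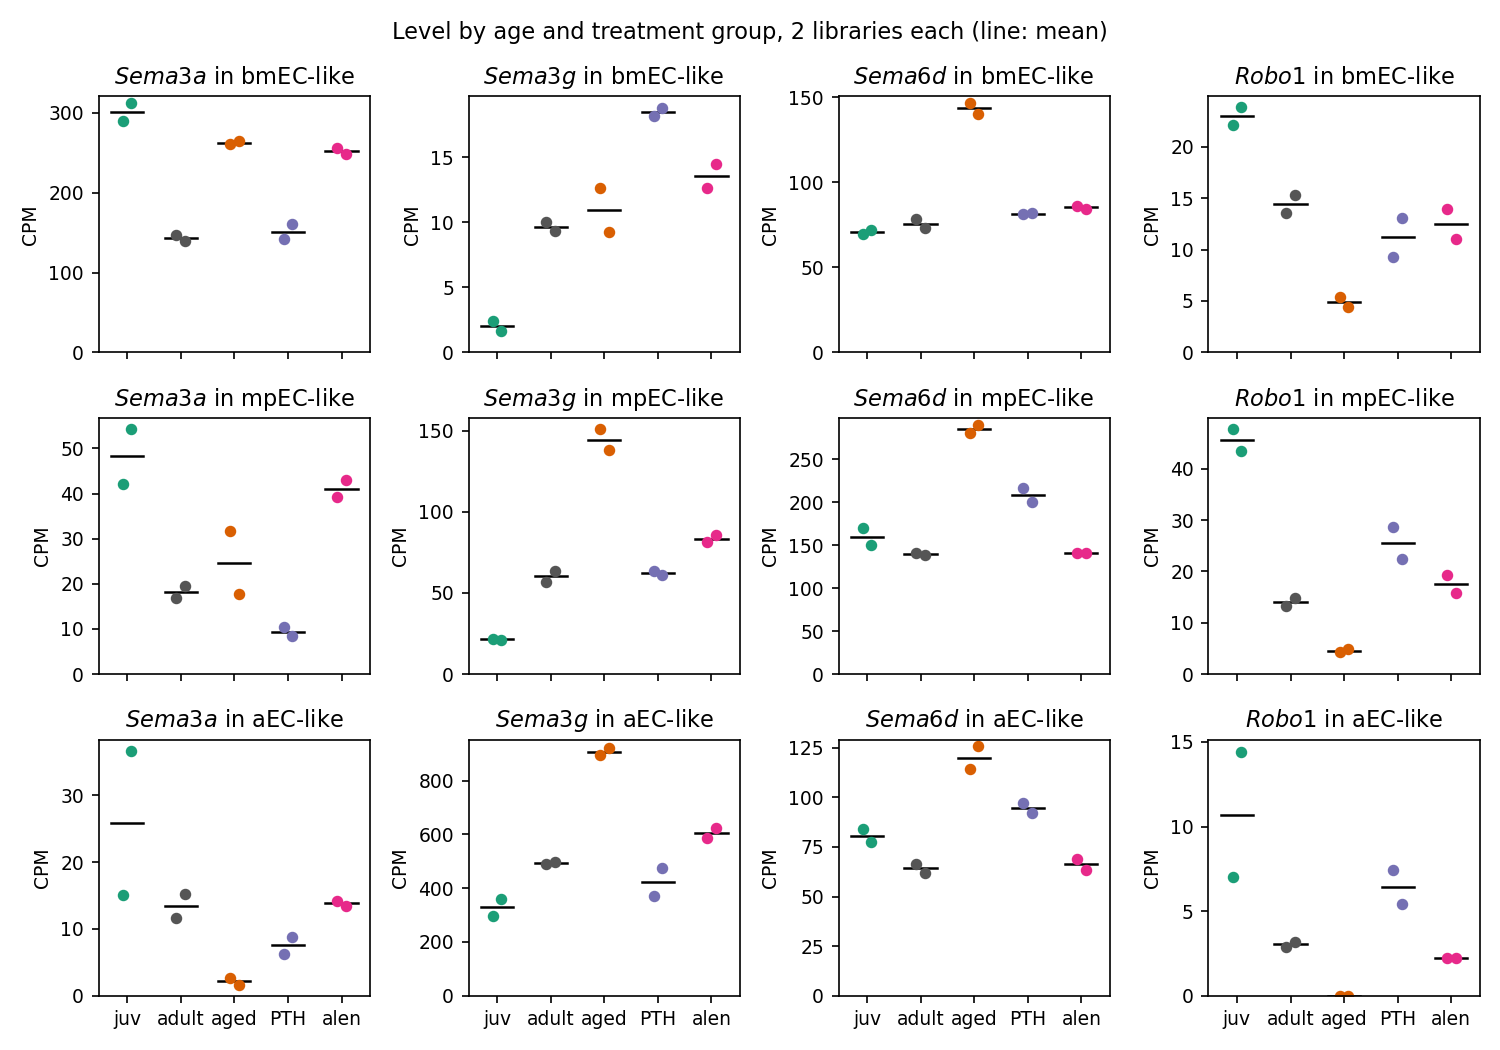
CPM of members within a class for each library, scaled within the class, with the 5 groups across, 1 point per library and a bar at the mean of both. Sema3a in bmEC-like cells sits at 147 and 139.6 CPM in adult and at 256 and 248 CPM in alendronate libraries, and Sema3g in mpEC-like cells at 151 and 138 CPM in aged libraries.

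Aged and adult libraries were compared in the same way. Called were 29 of 41 members in bmEC-like cells (70.7%, beside 66.3% of all genes) and 27 of 36 in mpEC-like cells (75%, beside 66.9%). They were 21 of 32 in aEC-like (65.6%, beside 57.3%), 18 of 26 in rEC-like (69.2%, beside 47.9%) and 7 of 19 in pEC-like cells (36.8%, beside 17.4%), where 1 aged library is set against 2 adult ones, since the other held too few cells, and the lone library is assumed to vary like the other groups. The shares in bmEC-like, mpEC-like and aEC-like cells are near the background. The directions were uneven: 22 higher and 7 lower in bmEC-like cells (beside 33.2% and 33.1% of all genes), 20 and 7 in mpEC-like cells (beside 33.7% and 33.2%). They were 15 and 6 in aEC-like cells (beside 27.9% and 29.5%) and 16 and 2 in rEC-like cells (beside 24.2% and 23.7%). The median log2 fold change of the members was 0.36, 0.50, 0.39 and 0.69 in these 4 classes, beside 0.02, 0.01, -0.03 and 0.01 over all genes tested.

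Sema3g, Efnb2 and Sema7a were higher in aged than in adult mpEC-like cells as the integrated data define them. The aged libraries held 703 and 729 mpEC-like and 572 and 595 aEC-like cells, and without integration 13 and 19 mpEC-like and 1311 and 1355 aEC-like cells. The aged mpEC-like values therefore have no counterpart without integration, and aEC-like values without it are of a differently drawn class. Sema3g had 151 and 138 CPM against 57 and 63.6 CPM (log2 fold change 1.27 ± 0.08, adjusted p = 3.40e-17). Efnb2 had 249.7 and 247 against 114 and 108 CPM (log2 fold change 1.16 ± 0.07, adjusted p = 3.82e-18). Sema7a had 134 and 133 against 59.4 and 63.4 CPM (log2 fold change 1.12 ± 0.08, adjusted p = 3.29e-16). In none of the 3 did the libraries overlap, but they were named for large differences. The share of all genes without overlap was not counted. In aEC-like cells Sema3g had 896 and 921 CPM in aged and 491 and 495 CPM in adult libraries (log2 fold change 0.88 ± 0.07, adjusted p = 1.58e-12). Efnb2 had 533 and 516 against 293 and 266 CPM (log2 fold change 0.90 ± 0.07, adjusted p = 5.54e-13). The summed bmEC markers in aEC-like cells were at 307 to 382 CPM in aged and 1143 to 1254 CPM in adult libraries. Their part in the aEC-like differences was not tested. In rEC-like cells Sema7a had 178 and 159 against 77.1 and 63.6 CPM (log2 fold change 1.26 ± 0.17, adjusted p = 1.05e-06). Efnb1 had 183 and 163 against 78.4 and 80.5 CPM (log2 fold change 1.12 ± 0.14, adjusted p = 3.16e-07). Within the mpEC-like clusters led by Ramp3 and Cd74 and by Kcne3 and Apln, plain CPM of Sema3g were 234 and 204 and 55.4 and 62.3 in the aged libraries and 77.5 and 87.4 and 24.2 and 27.1 in the adult ones. Another cluster, led by the predicted genes Gm10800 and Gm10801, held 33.9% and 32.5% of aged and 18.8% and 17.9% of adult mpEC-like cells, and that led by Kcne3 and Apln 26.5% and 28.1% and 37.4% and 35.2%, so the class was made of the clusters in different shares. The summed aEC markers in mpEC-like cells were at 725 to 754 CPM in aged and 611 to 645 CPM in adult libraries, and their part was not tested. In the cluster led by Gm10800 plain CPM of Sema3g were 266 and 222 against 107 and 107. Epha4 was higher in aged mpEC-like cells, 36.9 and 40.1 against 20.5 and 15.6 CPM (log2 fold change 1.08 ± 0.14, adjusted p = 1.29e-08). Without integration the aged aEC-like difference of Sema3g turned to -0.14 and lost its call, and that of Efnb2 was 0.32, still called.

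Plxna2, a plexin A, and Sema6d, of the class 6 semaphorins that bind plexin As, were higher in aged libraries of all 5 classes, in pEC-like cells with 1 aged library. Plxna2 had 259.7 and 269.7 CPM in aged and 77.1 and 75.3 CPM in adult rEC-like cells (log2 fold change 1.79 ± 0.13, adjusted p = 2.81e-11). It differed by 1.53 ± 0.08 (SE) in bmEC-like, 1.22 ± 0.08 in mpEC-like and 1.1 ± 0.11 in aEC-like cells on the log2 scale. Sema6d had 281 and 289.98 CPM against 141 and 138 CPM in mpEC-like cells (log2 fold change 1.03 ± 0.06, adjusted p = 1.80e-17), with differences of 0.92, 0.90 and 1.11 in bmEC-like, aEC-like and rEC-like cells. Plxnd1 was higher as well, from 0.46 ± 0.07 in aEC-like to 0.70 ± 0.13 in rEC-like cells among the classes with 2 aged libraries, and by 1.2 ± 0.18 in pEC-like cells. Without integration the aEC-like differences were 1.72 for Sema6d and 1.39 for Plxnd1. Ephb4 did not pass the test in bmEC-like, mpEC-like, aEC-like or rEC-like cells, with log2 fold changes from -0.15 ± 0.07 to 0.25 ± 0.12.

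The secreted ligands Ntn4, Slit3 and Ntn1 were higher in aged libraries. Ntn4 had 68.4 and 59.1 CPM in aged and 9.17 and 6.85 CPM in adult aEC-like cells (log2 fold change 2.97 ± 0.20, adjusted p = 1.09e-14). In rEC-like cells it had 28.7 and 25 against 1.26 and 2.6 CPM (log2 fold change 3.74 ± 0.55, adjusted p = 3.45e-06). Slit3 had 32.9 and 30.1 against 4.81 and 5.0 CPM in mpEC-like cells (log2 fold change 2.68 ± 0.20, adjusted p = 8.74e-15). In aEC-like cells it had 35.4 and 35.3 against 2.9 and 3.69 CPM (log2 fold change 3.41 ± 0.30, adjusted p = 8.52e-12). Mural cells, which came from libraries of the other groups, held Ntn4 and Slit3. The summed mural markers in aEC-like cells were at 23.7 to 25.4 CPM in the aged and 102 to 153 CPM in the adult libraries. The cells set aside as mesenchymal, in part of a mixed profile, held 25.3 CPM of Ntn4, 22.3 of Slit3 and 34.7 CPM of Ntn1. The summed mesenchymal markers were at 143 to 186 CPM in aged and 64.3 to 68.6 CPM in adult rEC-like cells, and at 18.7 to 19.5 CPM and 16.1 to 19.2 CPM in aEC-like cells. The part of these cells in the rEC-like differences was not tested. Ntn1 had 53.9 and 70.9 against 28 and 30.05 CPM in aEC-like cells (log2 fold change 1.11 ± 0.17, adjusted p = 6.51e-07). In rEC-like cells it had 34.3 and 35.9 against 8.85 and 11.7 CPM (log2 fold change 1.77 ± 0.39, adjusted p = 4.47e-04), and the aEC-like call was lost without integration (log2 fold change 0.26).

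Other members were lower in aged libraries, or differed in direction between classes. Efna1 was lower in aged libraries of bmEC-like, mpEC-like, aEC-like and rEC-like cells, from 336 and 335 against 537 and 578 CPM in aEC-like cells (log2 fold change -0.73 ± 0.07, adjusted p = 1.06e-11) to 102 and 90.6 against 206 and 217 CPM in bmEC-like cells (log2 fold change -1.13 ± 0.06, adjusted p = 1.61e-19). Robo1 had 4.25 and 4.8 CPM in aged and 13.3 and 14.8 CPM in adult mpEC-like cells (log2 fold change -1.63 ± 0.23, adjusted p = 1.09e-07). In aEC-like cells it had 0 aged UMIs against 12 adult ones, at least 6.20-fold lower with a floor of 3 counts over the group. Efna5 had 15.6 and 17.1 against 29.1 and 35.9 CPM in bmEC-like cells (log2 fold change -0.99 ± 0.14, adjusted p = 1.13e-07). Epha10 had 0 aged UMIs against 119 adult ones in bmEC-like cells, at least 19.5-fold lower. It was called lower in aged mpEC-like, aEC-like and rEC-like cells too. Over all libraries its bmEC-like mean was 7.64 CPM, beside 7.99 CPM in haematopoietic, 9.05 in erythroid and 6.42 CPM in mesenchymal cells. An opposite-strand gene overlaps the exons of Epha10. The part of read assignment and of carried-over RNA in its aged difference was not tested. Sema3a was higher in aged bmEC-like cells, 261 and 264 against 147 and 139.6 CPM (log2 fold change 0.87 ± 0.06, adjusted p = 3.85e-17). Of the aged bmEC-like cells, 32.2% and 34.3% were in the cluster led by Adamts5 and Stab2 and 5.17% and 5.23% in that led by C5ar2 and Zfp691, beside 14.9% and 14.3% and 20.4% and 25.1% of the adult ones. Within the former plain CPM of Sema3a were 473 and 420.3 against 179 and 189.6, and within the latter 232 and 317 against 133 and 114. In the cluster led by Adamts5 and Cfd they were 303 and 300.02 against 137 and 134, so the aged libraries lay above the adult ones in each of the 3. The other bmEC-like clusters are not given here. The summed lymphatic markers in bmEC-like cells were at 338 to 374 CPM in aged and 150.1 to 156 CPM in adult libraries, and their part in the aged bmEC-like differences was not tested. When the age groups alone were integrated, 206 ECs were named lymphatic, where the main integration named 0. They made up 1.66% and 1.64% of aged and 0.59% and 0.75% of adult ECs. Which class holds them in the main integration was not tested. Robo4 was lower in aEC-like cells (log2 fold change -0.49 ± 0.09, adjusted p = 8.54e-06) and higher in bmEC-like cells (log2 fold change 0.17 ± 0.05, adjusted p = 0.00193). Without integration the aEC-like difference of Efna1 was -1.18, still called, whereas those of Robo4 (0.18) and Robo1 (0.14) turned. The bmEC-like call of Robo4 was lost with 2 separate integrations (0.07) and without a filter on low counts (0.08).

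**Figure D4:**
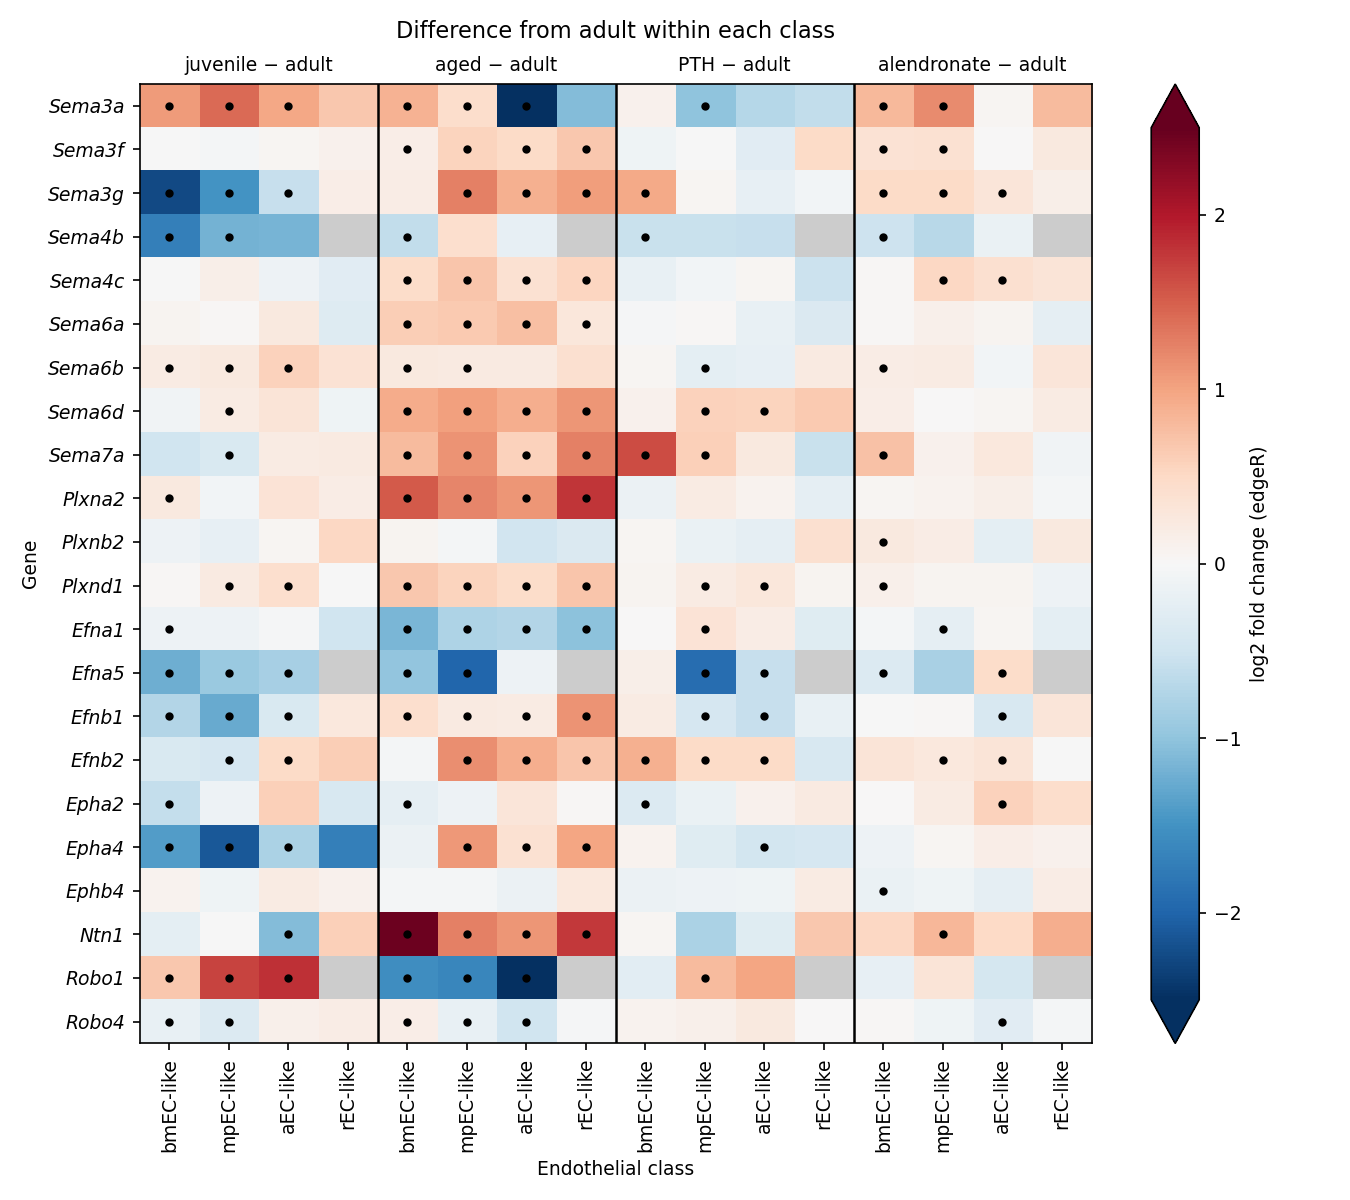
Log2 fold change of the 22 members with at least 20 CPM in a class (rows) for juvenile, aged, PTH and alendronate against adult in 4 classes (columns), with a dot where the adjusted p was under 0.05 and grey where a gene was not tested. Efna1 is lower and has a dot in the aged column of all 4 classes (-1.13 in bmEC-like cells), and the rEC-like columns of the juvenile, PTH and alendronate comparisons hold no dot.

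The treatments were compared with adult libraries of the same age and sex. The study's methods name injections of PBS beside those of the drugs, and the labels do not say whether the mice of the adult libraries were injected. If they were not, drug and injection cannot be told apart. Between PTH and adult libraries 6 of 41 members were called in bmEC-like cells (14.6%, beside 9.43% of all genes) and 11 of 36 in mpEC-like cells (30.6%, beside 17.4%). They were 6 of 32 in aEC-like (18.8%, beside 7.38%) and 2 of 19 in pEC-like cells (10.5%, beside 1.78%). Between alendronate and adult libraries the counts were 11 of 41 (26.8%, beside 18.5%), 9 of 36 (25%, beside 13.6%), 7 of 32 (21.9%, beside 6.65%) and 2 of 19 (10.5%, beside 1.46%). In rEC-like cells edgeR called 0 of 26 members under PTH (beside 5.7%) and 0 under alendronate (beside 2.62%), DESeq2 called 0 in both, and 6 and 4 had an unadjusted p under 0.05. Over bmEC-like, mpEC-like, aEC-like and rEC-like cells the 27 alendronate calls became 11 without adult replicate 2, 16 without alendronate replicate 2 and 10 in DESeq2, and the 23 PTH calls 15 in DESeq2.

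Under PTH, mpEC-like cells had higher Sema7a, Sema6d, Efnb2 and Efna1 and lower Efnb1. Sema7a had 94.3 and 92 CPM in PTH and 59.4 and 63.4 CPM in adult libraries (log2 fold change 0.60 ± 0.08, adjusted p = 9.23e-08). Sema6d had 216 and 201 against 141 and 138 CPM (log2 fold change 0.57 ± 0.06, adjusted p = 4.82e-09). Efnb2 had 153 and 157 against 114 and 108 CPM (log2 fold change 0.49 ± 0.07, adjusted p = 7.25e-07). In these 3 genes both PTH libraries were above both adult libraries, but they were named for large differences. The share of all genes without overlap was not counted. Efna1 had 357 and 395 against 305 and 289.6 CPM (log2 fold change 0.35 ± 0.06, adjusted p = 1.12e-05). Efnb1 had 158 and 168 against 213 and 223 CPM (log2 fold change -0.41 ± 0.06, adjusted p = 1.07e-06). Robo1 was higher, 28.6 and 22.3 against 13.3 and 14.8 CPM (log2 fold change 0.79 ± 0.15, adjusted p = 1.14e-04), and Slit3, its ligand, lower, 0.818 and 0.855 against 4.81 and 5.0 CPM (log2 fold change -2.5 ± 0.40, adjusted p = 6.87e-06). The cluster led by Kcne3 and Apln made up 50.8% and 38.4% of the mpEC-like cells in the PTH and 37.4% and 35.2% in the adult libraries. Within it plain CPM of Robo1 were 37.2 and 30.1 against 17.1 and 23.1 and of Efnb2 109 and 110.1 against 62 and 58.3. The summed aEC markers in mpEC-like cells were at 816 to 895 CPM in PTH and 611 to 645 CPM in adult libraries. The summed bmEC markers there were at 1753 to 1841 and 3519 to 3596 CPM. The cluster led by Gm10800 and Gm10801 held 7.96% and 28.6% of PTH and 18.8% and 17.9% of adult mpEC-like cells. The PTH libraries thus differed from each other in make-up. The part of markers and clusters in these differences was not tested.

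In aEC-like cells PTH libraries had higher Efnb2, 348 and 416 against 293 and 266 CPM (log2 fold change 0.47 ± 0.07, adjusted p = 2.29e-05), and higher Sema6d, 96.9 and 92.3 against 66.6 and 61.7 CPM (log2 fold change 0.55 ± 0.11, adjusted p = 8.49e-04). Lower were Efnb1, 159 and 166 against 231 and 257 CPM (log2 fold change -0.57 ± 0.09, adjusted p = 9.99e-06), and Efna5, 23.5 and 33.4 against 42.5 and 49 CPM (log2 fold change -0.58 ± 0.16, adjusted p = 0.0169). Epha4 was lower as well, 55.6 and 64.3 against 92.2 and 77 CPM (log2 fold change -0.46 ± 0.12, adjusted p = 0.0125). Sema3g, at 370.4 and 473 against 491 and 495 CPM, did not pass the test (log2 fold change -0.20 ± 0.08, adjusted p = 0.123). The summed mpEC markers in aEC-like cells were at 2998 to 3391 CPM in PTH and 2396 to 2457 CPM in adult libraries. The summed bmEC markers there were at 700 to 850 and 1143 to 1254 CPM. The part of both in the aEC-like differences was not tested. In bmEC-like cells Sema4b had 25.2 and 26.1 against 34.1 and 41.6 CPM (log2 fold change -0.55 ± 0.12, adjusted p = 0.00204). Epha2 had 46 and 50.3 against 63.1 and 60.5 CPM (log2 fold change -0.34 ± 0.08, adjusted p = 0.00528), and the summed haematopoietic markers there were at 29.9 to 30.4 CPM in PTH and 56.1 to 60.9 CPM in adult libraries, whose part in the Sema4b difference was not tested. The bmEC-like calls of Sema3g, Efnb2 and Sema7a as higher concern genes whose bmEC-like shares are at the background. With 1 library or step left out, the call was lost for Sema6d in aEC-like cells (log2 fold change 0.28 without integration). The same held for Efna5 (without integration -0.45, without adult replicate 2 -0.48, without PTH replicate 1 -0.45) and Epha4 (with 2 separate integrations -0.34, without adult replicate 1 -0.32, without PTH replicate 1 -0.40). In bmEC-like cells it held for Sema4b (without adult replicate 2 -0.40, without PTH replicate 2 -0.59) and Epha2 (without adult replicate 1 -0.31, without PTH replicate 2 -0.43). In DESeq2 the aEC-like calls of Efna5 (-0.62) and Epha4 (-0.47) and the bmEC-like calls of Sema4b (-0.56) and Epha2 (-0.35) were lost. Without PTH replicate 2 the aEC-like difference of Efna5 was larger, at -0.95.

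Under alendronate, the class 3 semaphorins Sema3a, Sema3f and Sema3g were higher. Sema3a had 256 and 248 CPM in alendronate and 147 and 139.6 CPM in adult bmEC-like cells (log2 fold change 0.81 ± 0.05, adjusted p = 4.65e-15). In mpEC-like cells it had 39.3 and 43 against 16.8 and 19.6 CPM (log2 fold change 1.18 ± 0.16, adjusted p = 8.30e-07). PTH libraries had 141 and 160.3 CPM in bmEC-like cells (log2 fold change 0.10 ± 0.06, adjusted p = 0.361) and 10.4 and 8.45 CPM in mpEC-like cells (log2 fold change -1.01 ± 0.21, adjusted p = 2.94e-04). In mpEC-like cells they lay below the adult libraries and the alendronate libraries above. The summed markers of bmEC-like cells (sinusoidal genes) in mpEC-like cells were at 1753 to 1841 CPM in PTH, 3519 to 3596 CPM in adult and 3581 to 3757 CPM in alendronate libraries. Plain CPM of Sema3a within the cluster led by Ramp3 and Cd74 were 11.4 and 11.1, 9.69 and 15.3 and 21.4 and 25.3 in these groups, with PTH and adult libraries overlapping. Within that led by Kcne3 and Apln they were 9.31 and 6.96, 23.4 and 23.5 and 54.8 and 57. The cluster led by Gm10800 and Gm10801 is not given here. Of haematopoietic cells with at least 1000 UMIs, 20 of 162 and 21 of 173 had a Sema3a UMI in alendronate libraries. They were 6 of 202 and 12 of 247 in adult and 2 of 52 and 6 of 76 in PTH libraries. The part of sinusoidal or other carried-over RNA in the mpEC-like differences was not tested. The PTH call of Sema3a in mpEC-like cells was lost without PTH replicate 2 (-0.81) and at a resolution of 0.8 (-0.63). Sema3f had 122 and 109 against 92.7 and 88.2 CPM in bmEC-like cells (log2 fold change 0.35 ± 0.06, adjusted p = 3.82e-05). In mpEC-like cells it had 166 and 179 against 139 and 127 CPM (log2 fold change 0.38 ± 0.07, adjusted p = 9.90e-05). Sema3g had 81.3 and 85.8 against 57 and 63.6 CPM in mpEC-like cells (log2 fold change 0.47 ± 0.09, adjusted p = 9.03e-05; 0.24 and no call without integration) and 587 and 623 against 491 and 495 CPM in aEC-like cells (log2 fold change 0.29 ± 0.07, adjusted p = 0.0094). The summed aEC markers in mpEC-like cells were at 824 to 869 CPM in alendronate and 611 to 645 CPM in adult libraries, and their part in the mpEC-like differences of Sema3g and Efnb2 was not tested. The aEC-like call of Sema3g was lost in DESeq2 (0.31), without either adult library (0.30, 0.31) or without alendronate replicate 2 (0.25).

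Other members were called in both directions under alendronate. Sema4c had 117 and 108 CPM against 79.7 and 76.9 CPM in mpEC-like cells (log2 fold change 0.52 ± 0.08, adjusted p = 4.43e-06). Efnb2 had 357 and 346 against 293 and 266 CPM in aEC-like cells (log2 fold change 0.33 ± 0.07, adjusted p = 0.00342). In mpEC-like cells it had 144 and 123 against 114 and 108 CPM (log2 fold change 0.26 ± 0.07, adjusted p = 0.00988). Efna5 had 58.2 and 66.5 against 42.5 and 49 CPM in aEC-like cells (log2 fold change 0.45 ± 0.14, adjusted p = 0.0473). In bmEC-like cells it had 23.2 and 27.8 against 29.1 and 35.9 CPM (log2 fold change -0.34 ± 0.11, adjusted p = 0.0216). Without adult replicate 2 the calls of Efnb2 in aEC-like (0.27) and mpEC-like (0.23) and of Efna5 in aEC-like (0.56) and bmEC-like cells (-0.19 on the log2 scale) were lost. Without alendronate replicate 1 those of Efnb2 in mpEC-like (0.14) and Efna5 in bmEC-like cells (-0.22) were lost, and that of Efna5 in aEC-like cells was also lost without alendronate replicate 2 (0.35), adult replicate 1 (0.36) or aged replicate 2 (0.46). The bmEC-like calls of Sema3g and Sema7a as higher again concern shares of cells at the background. DESeq2 did not call Efna5 in aEC-like (0.46) and bmEC-like cells (-0.33) or Efnb2 in mpEC-like cells (0.27), and the latter was also lost without integration (0.13), without a filter on low counts (0.26) and at a resolution of 0.8 (0.21). The aEC-like call of Efna5 was lost without integration (0.42) and at a resolution of 0.8 (0.44) too.

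Lower under alendronate in aEC-like cells were Efnb1, 184 and 185 against 231 and 257 CPM (log2 fold change -0.40 ± 0.08, adjusted p = 0.00148), and Robo4, 181 and 152 against 198 and 208 CPM (log2 fold change -0.28 ± 0.08, adjusted p = 0.0336). Higher there were Epha2, 42.4 and 55.3 against 37.2 and 27.9 CPM (log2 fold change 0.58 ± 0.16, adjusted p = 0.0239), and Sema4c, 68.6 and 69.3 against 50.2 and 53.8 CPM (log2 fold change 0.41 ± 0.13, adjusted p = 0.0404). In bmEC-like cells Sema4b was lower, 25 and 28 against 34.1 and 41.6 CPM (log2 fold change -0.51 ± 0.11, adjusted p = 5.49e-04), and Plxnb2 higher, 80.1 and 76.9 against 64.9 and 67.8 CPM (log2 fold change 0.24 ± 0.07, adjusted p = 0.0105). Plxnc1 (log2 fold change -0.60 ± 0.16, adjusted p = 0.00511) and Ephb4 (log2 fold change -0.16 ± 0.05, adjusted p = 0.0128) were lower there too. The summed haematopoietic markers in bmEC-like cells were at 88 to 93.3 CPM in alendronate, 96.8 to 120 CPM in aged and 56.1 to 60.9 CPM in adult libraries. Sema4b was called lower in aged bmEC-like cells too. The part of these cells in the Sema4b difference was not tested. In mpEC-like cells Efna1 was lower (log2 fold change -0.22 ± 0.06, adjusted p = 0.0109). DESeq2 did not call Epha2 (0.60), Sema4c (0.43) or Plxnb2 (0.26). Without adult replicate 2 the calls of Epha2 (0.40), Sema4c (0.47) and Efnb1 (-0.32) in aEC-like and Sema4b in bmEC-like cells (-0.36) were lost. Those of Sema4c and Plxnb2 were also lost without adult replicate 1 (0.37, 0.21) or alendronate replicate 1 (0.42, 0.21), and those of Epha2 (also lost with 2 separate integrations, 0.47) and Sema4c without alendronate replicate 2 (0.37, 0.40). The calls of Plxnc1 (-0.59), Ephb4 (-0.15), Efna1 (-0.21) and Robo4 (-0.27) were lost in DESeq2 and without adult replicate 1 (-0.46, -0.17, -0.18, -0.31), and those of Ephb4, Efna1 and Robo4 under further alternatives, with Efna1 at -0.14 and Robo4 at -0.16 without alendronate replicate 2.

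PTH and alendronate libraries were then compared with each other, without the adult libraries in the contrast. Called were 9 of 41 members in bmEC-like cells (22%, beside 14.9% of all genes) and 21 of 36 in mpEC-like cells (58.3%, beside 22.8%). Over bmEC-like, mpEC-like, aEC-like and rEC-like cells the 45 calls became 29 without alendronate replicate 2 and 25 in DESeq2. Called were also 12 of 32 in aEC-like (37.5%, beside 9.79%), 3 of 26 in rEC-like (11.5%, beside 5.79%) and 2 of 19 in pEC-like cells (10.5%, beside 1.82%). Sema3a was lower under PTH in bmEC-like cells (log2 fold change -0.71 ± 0.06, adjusted p = 2.75e-12) and mpEC-like cells (log2 fold change -2.19 ± 0.17, adjusted p = 4.33e-13), where the bmEC markers were also at the different levels given above. In mpEC-like cells Sema4c was lower at 76.1 and 74.3 against 117 and 108 CPM (log2 fold change -0.59 ± 0.08, adjusted p = 9.44e-08). Higher under PTH were Sema6d (log2 fold change 0.56 ± 0.06, adjusted p = 7.03e-09), Efna1 (log2 fold change 0.56 ± 0.06, adjusted p = 5.25e-10) and Sema7a (log2 fold change 0.50 ± 0.08, adjusted p = 2.56e-06). In aEC-like cells Efna5 had 23.5 and 33.4 CPM under PTH and 58.2 and 66.5 CPM under alendronate (log2 fold change -1.03 ± 0.14, adjusted p = 8.71e-07). Robo4 was higher under PTH (log2 fold change 0.52 ± 0.08, adjusted p = 8.53e-06). In rEC-like cells Sema4c, Efnb1 and Sema3a were lower under PTH, with Sema4c at 40.6 and 43.5 against 81.4 and 74.1 CPM (log2 fold change -0.86 ± 0.15, adjusted p = 3.75e-04). Efnb1 there (log2 fold change -0.50 ± 0.13, adjusted p = 0.02) lost its call without any 1 of the 4 libraries compared, with log2 fold changes from -0.73 (without PTH replicate 2) to -0.45 (without PTH replicate 1), and also in DESeq2 (-0.52) and without integration (-0.20). Sema3a in rEC-like cells is at the background in its share of cells, and its call was lost without any 1 of these libraries too. The cluster led by Tagln and Vwf made up 74.4% and 53.2% of the rEC-like cells under PTH and 34.6% and 37.5% under alendronate, so the class is made of the clusters in different shares. Within it plain CPM of Sema4c were 28.4 and 31.6 against 29.1 and 35.8 and overlapped, and within that led by Timp4 and Aqp7 75 and 63 against 121 and 108. Those of Efnb1 were 52.9 and 51 against 64.7 and 45.4 in the former and 75 and 111 against 126 and 141 in the latter.

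In bmEC-like cells Sema3f, 81.3 and 85.5 under PTH against 122 and 109 CPM under alendronate (log2 fold change -0.46 ± 0.07, adjusted p = 6.34e-06), and Epha2, 46 and 50.3 against 60.1 and 63.9 CPM (log2 fold change -0.34 ± 0.08, adjusted p = 0.00399), were lower under PTH. Efna5 was higher, 32.7 and 37.5 against 23.2 and 27.8 CPM (log2 fold change 0.50 ± 0.12, adjusted p = 0.00331). In aEC-like cells Ntn1, 27.5 and 21.7 against 36.4 and 46 CPM (log2 fold change -0.81 ± 0.17, adjusted p = 6.80e-04), and Epha4, 55.6 and 64.3 against 89.8 and 99.4 CPM (log2 fold change -0.62 ± 0.11, adjusted p = 1.17e-04), were lower, and Sema6d was higher (log2 fold change 0.50 ± 0.10, adjusted p = 5.67e-04). The bmEC-like call of Efna5 was lost in DESeq2 (0.46), without alendronate replicate 1 (0.37) or without PTH replicate 2 (0.35). Lost were also those of Epha2 without alendronate replicate 2 (-0.30), Ntn1 without PTH replicate 2 (-0.58) and Sema6d without integration (0.30).

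Other genes of the same pathways, co-receptors such as the neuropilins, further ligands, and effectors such as the collapsin response mediators, were read as a list of their own. Of 38 tested between classes, 7 were called in bmEC-like cells (3 higher, 4 lower; 18.4%, beside 15.4% of all genes) and 5 in mpEC-like cells (3 and 2; 13.2%, beside 5.52%). They were 10 in aEC-like (4 and 6; 26.3%, beside 13.2%), 11 in rEC-like (7 and 4; 28.9%, beside 13.5%) and 6 in pEC-like cells (3 and 3; 15.8%, beside 11.2%). Between aged and adult libraries 28 of 38 were called in bmEC-like (22 higher, 6 lower; 73.7%, beside 66.3%) and 30 of 39 in mpEC-like cells (26 and 4; 76.9%, beside 66.9%), both near the background. They were 27 of 37 in aEC-like (23 and 4; 73%, beside 57.3%) and 23 of 34 in rEC-like cells (21 and 2; 67.6%, beside 47.9%). Nrp1, the co-receptor of class 3 semaphorins, and Nrp2 were among those higher in aged libraries of these 4 classes. Under PTH 12 of 39 were called in mpEC-like cells (9 higher, 3 lower; 30.8%, beside 17.4%) and 5 of 37 in aEC-like cells (4 and 1; 13.5%, beside 7.38%). Under alendronate they were 6 of 39 (5 and 1; 15.4%, beside 13.6%) and 1 of 37 (lower; 2.7%, beside 6.65%).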

How the data were processed

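The authors deposited count values (UMIs per gene and cell), 1 table per library, without normalization. By the labels and methods, reads were assigned to cells with UMI-tools 1.1.2, aligned to mm10 with STAR 2.7.10a and counted on genes with featureCounts 2.0.3; the strand setting is not given in the sources used here. Kept were cells with 500 to 6000 genes and under 25% mitochondrial UMIs, and genes with a UMI in at least 3 cells.

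A first clustering set aside cells that were not ECs. The libraries were integrated with Seurat 5.3.0 anchors, the adult libraries as reference, on 2000 variable features without axon guidance or cell cycle genes, 30 principal components and a resolution of 0.5, and clusters were named from marker lists. Scrublet, run in scanpy 1.11.5, marked 0.05% to 0.63% of cells in 9 libraries and 1.83% in PTH replicate 1, so doublets were kept, and removing the highest scores, 0.8% per 1000 cells, was an alternative. UMIs were summed per class and library (at least 20 cells) and tested with edgeR 4.0.16 (quasi-likelihood, TMM factors, filterByExpr; R 4.3.3), with Benjamini-Hochberg adjustment over all genes. DESeq2 1.42.0, RLE size factors, testing genes of low counts too, other resolutions, no integration, 2 separate integrations, a replicate block and each library left out were the alternatives. Shares of cells with a UMI were computed exactly for a draw of 1000 UMIs per cell without replacement. The scripts were checked on simulated counts (python 3.11.15, numpy 2.4.6, pandas 2.3.3, scipy 1.17.1). Gene positions are of the GRCm38 (mm10) annotation, and promoters were read from RefSeq sequences on GRCm38.p6.

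Members named in the text are, per class and direction, the 4 with the largest log2 fold change among those called with a mean of at least 20 CPM, per class and group comparison the 5 largest by the same rule, and Efnb2, Sema3g, Sema7a, Ephb4, Plxnd1, Plxnc1, Robo4, Slit2 and Slit3. Others, such as Ntn4 and Slit3 beyond their calls, Robo1 below 20 CPM, Epha10, Plxnb2 and the members in cells other than ECs, were chosen after their values were seen. The members, markers and lists were chosen with earlier results of these data known. Intervals and floors cover counting error only.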

Additional observations from a re-analysis of the deposited data

Results flagged for a closer look

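In 12 cases a member passed the test in opposite directions in 2 classes under the same comparison. The difference of the log2 effects was read as an interaction in edgeR's quasi-likelihood fit, with Benjamini-Hochberg adjustment over all genes. These cases were picked for their opposite calls in the same counts, so a passing difference was nearly set beforehand and adds no support. How many of all genes are called in opposite directions was not counted. For juvenile against adult, Efnb2 was lower in mpEC-like and higher in aEC-like cells, a difference (mpEC-like minus aEC-like) of -0.90 ± 0.10 (SE; adjusted p = 1.79e-15). The mpEC-like effect changed sign without integration.

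For aged against adult, Robo4 differed by 0.41 ± 0.06 between bmEC-like and mpEC-like cells (adjusted p = 2.47e-06) and by 0.75 ± 0.09 between bmEC-like and aEC-like cells (adjusted p = 9.99e-16), being higher in aged bmEC-like and lower in the other two. Ephb1, a receptor of ephrin-B ligands, differed by 3.77 ± 0.66 between bmEC-like and aEC-like cells (adjusted p = 3.03e-07) and by 1.91 ± 0.41 between mpEC-like and aEC-like cells (adjusted p = 6.53e-04), at low levels in both bmEC-like and aEC-like cells. Sema3a differed by 3.61 ± 0.38 between bmEC-like and aEC-like cells (adjusted p = 4.28e-19) and by 3.11 ± 0.41 between mpEC-like and aEC-like cells (adjusted p = 2.13e-08). Its aEC-like levels, 2.64 and 1.6 CPM in aged and 11.6 and 15.3 CPM in adult libraries, belong to shares of 0.234% and 0.227% and 0.659% and 1.27% of cells. Adult haematopoietic cells had shares of 0.411% and 1.44%, and in the aged libraries 0 of 138 and 0 of 120 haematopoietic cells had a UMI, which allows a share of up to 2.17% and 2.5%. Without integration, where the aged aEC-like class is drawn differently, the aged aEC-like effects turned to 0.18 for Robo4, 0.11 for Ephb1 and 0.74 for Sema3a, and without aged replicate 1 the mpEC-like effect of Sema3a was -0.04.

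For alendronate against adult, Efna5 was lower in bmEC-like and higher in aEC-like cells, a difference (bmEC-like minus aEC-like) of -0.80 ± 0.17 (adjusted p = 1.69e-04). Both of its single-class calls were lost in DESeq2 (-0.33 in bmEC-like, 0.46 in aEC-like cells) and under further alternatives, as given above. For PTH against alendronate, Efna5 differed by 1.62 ± 0.40 between bmEC-like and mpEC-like (adjusted p = 0.00189) and by 1.55 ± 0.16 between bmEC-like and aEC-like cells (adjusted p = 4.58e-06). Its mpEC-like mean over all libraries was only 2.99 CPM. The bmEC-like call was lost in DESeq2 (0.46), without alendronate replicate 1 (0.37) or without PTH replicate 2 (0.35). Sema3g differed by 0.90 ± 0.17 between bmEC-like and mpEC-like (adjusted p = 1.00e-05) and by 0.93 ± 0.15 between bmEC-like and aEC-like cells (adjusted p = 4.04e-04), and its bmEC-like share of cells is at the background.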

How the results depend on the processing

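Of 2182 values of the 113 results on members named by the rule under alternatives, 2063 kept direction and call, 118 lost the call and 1 turned: Efnb2 in juvenile mpEC-like cells, 0.23 without integration, against -0.43. The cause was not tested. Outside these 113 results, the aged aEC-like differences of Sema3g, Robo4, Robo1, Ephb1 and Sema3a also turned without integration, as given above. With RLE size factors in place of TMM all 113 kept both. Between classes 48 calls were made over the 5 classes, and 48 to 51 with 1 library left out. The class counts were 12 (12 to 13 with 1 library left out) in bmEC-like, 5 (5 to 6) in mpEC-like, 15 (15 in each case) in aEC-like, 11 (11 to 13) in rEC-like and 5 (4 to 6) in pEC-like cells. Without a filter on low counts, which adds genes to the test, they were 19 in bmEC-like and 18 in rEC-like cells, at a resolution of 0.8 they were 11 in mpEC-like cells, and without both aged libraries (chosen after seeing the data) 3 in pEC-like cells.

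Over bmEC-like, mpEC-like, aEC-like and rEC-like cells, 43 calls were made for juvenile, 95 for aged, 23 for PTH and 27 for alendronate against adult and 45 for PTH against alendronate. DESeq2 gave 27, 80, 15, 10 and 25. With 1 library left out the ranges were 28 to 43 (28 without adult replicate 2), 80 to 96, 19 to 22, 11 to 28 (11 without adult replicate 2, 16 without alendronate replicate 2) and 29 to 46 (29 without alendronate replicate 2). A group left with 1 library was assumed to vary like the others. Same-numbered libraries of different groups did not deviate together (r from -0.0871 to 0.0903 over 46 comparisons), and the replicate block gave 42 (juvenile), 94 (aged), 23 (PTH), 26 (alendronate) and 45 calls (PTH against alendronate). Thinned to 2000 UMIs, which left out 23.2% of aEC-like and 15.98% of bmEC-like cells, shares were 58.8% (Sema3g) and 48.2% (Efnb2) and 30.8% (Sema7a) in aEC-like and 31.0% (Sema3a) in bmEC-like cells. Without integration no count over all classes could be given for the aged comparison, since mpEC-like cells, 703 and 729 in the integrated data, numbered 13 and 19 there, under the minimum of 20 cells, and aEC-like cells 1311 and 1355 against 572 and 595. The juvenile rEC-like sums hold 75 and 73 cells, and what depth does to the rEC-like and pEC-like counts was not tested.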

Other observations

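In pEC-like cells Sema3a had 77.2 and 80.8 CPM in juvenile, 85.7 and 67.7 in alendronate and 26.6 and 27.6 CPM in adult libraries, higher in juvenile (log2 fold change 1.54 ± 0.31, adjusted p = 0.00187) and alendronate libraries (log2 fold change 1.49 ± 0.37, adjusted p = 0.0294, edgeR). The juvenile call was lost without adult replicate 1 (1.51) and with 2 separate integrations (1.33). The alendronate call was lost without any 1 of the 4 libraries compared (1.33 to 1.64), with the highest doublet scores removed (1.19) and at a resolution of 0.3 (1.34). The share of haematopoietic cells with a Sema3a UMI also differed between these groups, by the counts given above with the juvenile and alendronate comparisons. The part of carried-over RNA was not tested. Efnb2 had 115 and 98.6 CPM in PTH and 29.99 and 184 CPM in alendronate libraries beside 29 and 27.6 CPM in adult ones (log2 fold change 1.87 ± 0.44, adjusted p = 0.0151 and log2 fold change 1.96 ± 0.47, adjusted p = 0.0218). The PTH call was lost without any 1 of the 4 libraries (1.78 to 2.0) and with the highest doublet scores removed (1.72). The alendronate call was lost without either adult library (2.0, 1.93) and without alendronate replicate 2, where the value was 0.06.

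Robo1 had 51.4 and 43.2 against 14.5 and 20.7 CPM in juvenile and adult pEC-like cells (log2 fold change 1.46 ± 0.41, adjusted p = 0.0369), a call lost without any 1 of these 4 libraries (1.18 to 1.7). Epha2 had 19.7 and 23.3 CPM in PTH and 70.02 and 51.8 CPM in adult libraries (log2 fold change -1.49 ± 0.39, adjusted p = 0.0406), likewise lost without any 1 of them, without integration or with 2 separate integrations, at resolution 0.3 and with the highest doublet scores removed (-1.66 to -1.22). Between PTH and alendronate Sema3a (log2 fold change -1.45 ± 0.35, adjusted p = 0.0222) and Sema4c (log2 fold change -1.27 ± 0.31, adjusted p = 0.0243) were lower under PTH. The Sema3a call was lost without any 1 of the 4 libraries, at resolution 0.3 and with the highest doublet scores removed (-1.72 to -1.19), and that of Sema4c without either alendronate library or PTH replicate 2 (-1.29 to -0.99).

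The aged pEC-like value is 1 library, set against 2 adult ones and assumed to vary like the other groups. Called higher were Sema7a at 77.6 against 24.1 and 31.1 CPM (log2 fold change 1.51 ± 0.50, adjusted p = 0.0314), Plxna2 at 178 against 70.02 and 55.2 CPM (log2 fold change 1.48 ± 0.33, adjusted p = 0.00186) and Sema3f at 297 against 113 and 100.1 CPM (log2 fold change 1.46 ± 0.27, adjusted p = 2.51e-04). Sema3a (log2 fold change 1.43 ± 0.48, adjusted p = 0.0347), Sema6d (log2 fold change 0.97 ± 0.26, adjusted p = 0.00851) and Plxnd1 (log2 fold change 1.2 ± 0.18, adjusted p = 7.00e-06) were called higher too, and Efna1 lower, at 82.2 against 208 and 245 CPM (log2 fold change -1.44 ± 0.33, adjusted p = 0.00192). The calls of Sema7a and Sema3a were lost without adult replicate 1 (1.29, 1.38) and without a filter on low counts (1.41, 1.33), and that of Sema3a without adult replicate 2 (1.45). In DESeq2 the call of Sema6d was lost (1.0).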
